A study of Mus musculus with 8 samples.

Results

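Sox2, Sox9 and Sox17 encode transcription factors of the SOX family, which share an HMG-box DNA-binding domain. Their loci were examined for H3K27me3, the repressive histone mark that Polycomb repressive complex 2 deposits, in mouse liver. The members were 3 windows on the mm9 build, which are approximate and do not follow an annotation: chr3:34400001-34700000 (Sox2, 300 kb), chr11:112580001-112720000 (Sox9, 140 kb) and chr1:4450001-4530000 (Sox17, 80 kb). The 8 deposited lists held 107140 islands, that is stretches enriched for the mark, and 56 of them overlapped a window: 27 at Sox2, 20 at Sox9 and 9 at Sox17. The animals were male mice of the outbred CD-1 stock at 7 weeks of age. The TCPOBOP group received TCPOBOP, an agonist of the nuclear receptor CAR, at 3 mg/kg, the vehicle group received corn oil with 1% DMSO, and liver tissue was collected from both after 3 h. Chromatin of individual livers was immunoprecipitated with the same antibody, and fragments of 600 to 1100 bp gave 3 TCPOBOP and 3 vehicle libraries. Fragments over 1100 bp gave 1 further library per treatment, made from the same ChIP samples as replicate 1, so these 2 libraries are not further animals. The fragments of 600 to 1100 bp were digested to 500 bp and those over 1100 bp to 200 bp. Between the classes, fragment length and digestion thus cannot be told apart.

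SOX factors are assigned to subgroups by their HMG box. Sox2, of subgroup B, maintains pluripotent and neural progenitor cells and is not a gene of the adult hepatocyte. Sox9, of subgroup E, drives cartilage formation and in adult liver marks the bile duct epithelium. Sox17, of subgroup F, acts in endoderm formation and in endothelium, of which the liver holds a large network of vessels and sinusoids. Polycomb repressive complex 2 commonly occupies the CpG-rich promoters of developmental regulators in cells that do not express them. The libraries were of whole liver, which is mostly hepatocytes by mass, so an island carried by all cells and one carried by part of the cells cannot be told apart.

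The promoter table of RefSeq (GRCm38.p6) matched Sox2 among the 3 members and 6 of the 9 other Sox genes considered further on. The Sox2 promoter is shown because the island at its locus had the highest total score of the 3 loci in every list, and that of Sox1, a related subgroup B gene, because its window was the most covered of the Sox windows examined. Each is given 5′ to 3′ over the 250 bases before the gene's start, on the plus strand of chromosomes 3 and 8, with every CpG dinucleotide in capitals.
Sox2: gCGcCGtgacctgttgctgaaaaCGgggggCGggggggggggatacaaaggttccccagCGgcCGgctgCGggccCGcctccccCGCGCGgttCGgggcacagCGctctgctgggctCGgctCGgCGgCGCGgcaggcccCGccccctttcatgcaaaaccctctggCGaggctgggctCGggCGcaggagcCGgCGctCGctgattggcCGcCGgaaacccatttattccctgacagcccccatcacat
Sox1: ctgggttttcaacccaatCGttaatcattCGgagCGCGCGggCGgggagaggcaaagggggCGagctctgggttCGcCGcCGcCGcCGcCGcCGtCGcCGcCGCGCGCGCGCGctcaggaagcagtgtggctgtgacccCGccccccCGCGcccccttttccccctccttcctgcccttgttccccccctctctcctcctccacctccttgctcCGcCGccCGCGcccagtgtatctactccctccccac
The Sox2 stretch held 27 CpG, at 72.0% G and C, and the Sox1 stretch 29 CpG, at 71.2% G and C. CpG, searched as the letters CG (the same on both strands), occurred at least once in 92.1% of the 32851 promoter stretches of this length in the table, with a median of 6.0. As many as the Sox2 stretch were found in 8.56% of them, and as many as the Sox1 stretch in 6.78%. These were the highest counts of the 7 Sox promoters matched: Sox14 held 23 CpG, Sox8 18, Sox21 and Sox11 17 each, and Sox4 11. The mm9 positions of these promoters were not determined, so their place within an island was not measured.

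The lists differed in length, which touches every cover value that follows. The lists of the 6 livers with 600 to 1100 bp fragments held 6295 to 14748 islands over 174 to 340 Mb, shortest in TCPOBOP replicate 3 and longest in vehicle replicate 1, and the TCPOBOP and vehicle libraries over 1100 bp covered 676 and 654 Mb. The lists hold no read counts, so the depth of each library is unknown and no counting interval was computed. For orientation, an 80 kb window at Alb, the serum albumin gene of hepatocytes, was free of islands in the 8 lists, each at 0% cover. Of consecutive 80 kb tiles of the autosomes, 54.8% held no island in any of the 6 livers. An empty window is thus common and by itself checks neither the tissue nor the mark. A window of the same size at the HoxA cluster, a classical Polycomb target, was 100% covered in all 8.

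All 3 loci carried an island in every list, and at each locus 1 stretch was covered in all 6 livers. That stretch was 40 kb at Sox2 (chr3:34532801-34572800), 13.6 kb at Sox17 (chr1:4478401-4492000) and 8.4 kb at Sox9 (chr11:112634401-112642800). The same 3 stretches were also covered in both libraries over 1100 bp. The Sox9 stretch rested on low-scoring islands in part: with a shared score minimum of 84.6, vehicle replicate 3 kept no island in the Sox9 window (0% covered), so the stretch was no longer common to all 6 livers. Measured from the centre of its window, the Sox2 stretch ran from 17.2 kb left to 22.8 kb right, the Sox17 stretch from 11.6 kb left to 2.0 kb right, and the Sox9 stretch from 15.6 to 7.2 kb left. Among tiles of the same length over the autosomes, a stretch shared by all 6 livers and at least as long was held by 1.31% of 300 kb tiles for Sox2, 4.04% of 80 kb tiles for Sox17 and 12.3% of 140 kb tiles for Sox9. A shared stretch of any length was held by 30.5% of 300 kb, 13.2% of 80 kb and 18.8% of 140 kb tiles.

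**Figure D1:**
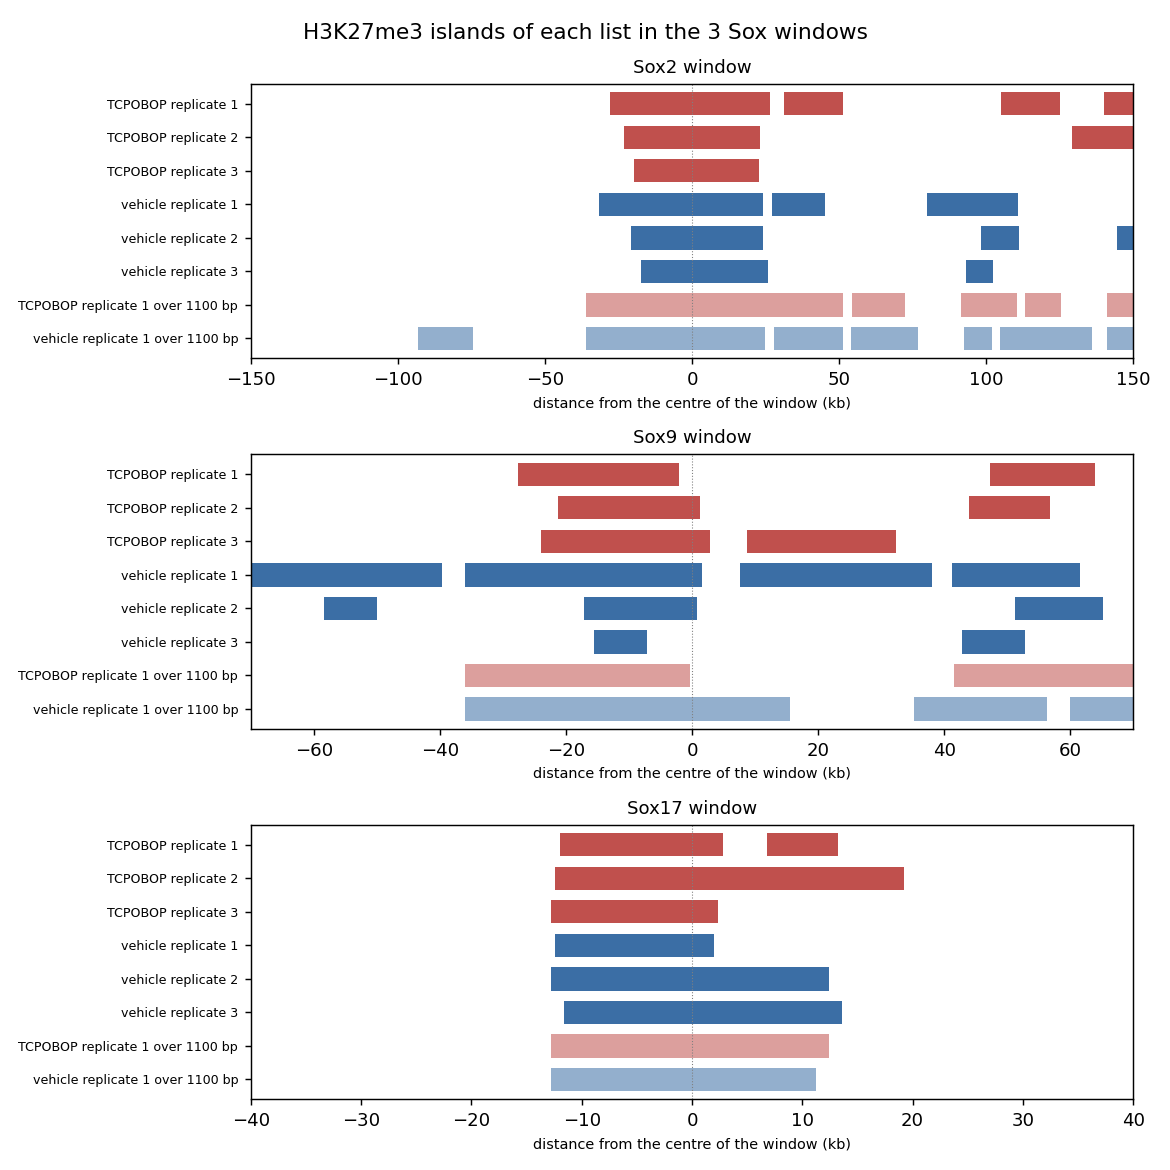
Islands of each list in the 3 windows, against the distance from the window's centre in kb. TCPOBOP lists are red and vehicle lists blue, pale bars are the libraries over 1100 bp, and islands are cut at the window's edge. An island spans the centre in all 8 lists at Sox2 and Sox17, while at Sox9 the island over the shared stretch lies mostly left of it and varies in extent.

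Livers shared more of the marked length at Sox17 and Sox2 than at Sox9. Of the length covered in any of the 6 livers, 42.5% was covered in all 6 at Sox17 (13.6 of 32.0 kb), 27.03% at Sox2 (40 of 148 kb) and 6.80% at Sox9 (8.4 of 123.6 kb). Over all chromosomes that share was 12.1%. At Sox9, vehicle replicate 1, with the longest list, alone covered 118.8 kb. The 8.4 kb shared there was the whole central island of vehicle replicate 3, which scored 56.6. The low share at Sox9 thus leans on these lists. Length covered in a single liver made up 17.5% at Sox17, 35.1% at Sox2, 33.3% at Sox9 and 32.4% over all chromosomes.

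At Sox2, the neural and pluripotency gene, a broad island sat over the centre of the window in every liver. Its width was 54.4, 46.4 and 42.4 kb in TCPOBOP replicates 1, 2 and 3, against 55.6, 44.8 and 43.2 kb in vehicle replicates 1, 2 and 3. The widths of the treatments overlapped, with replicate 1 widest in both. Its right end was nearly fixed, between 34572800 and 34576400 in the 6 livers (SD 1.48 kb), while its left end ranged over 14.4 kb, from 34518401 to 34532801 (SD 5.44 kb). The island scores are the authors' own values, relative to a background modelled for each library, and are used here to rank islands within a list. By score this island ranked 87 of 13759, 141 of 10197 and 81 of 6295 in the TCPOBOP livers, against 168 of 10057, 142 of 14748 and 122 of 12430 in the vehicle livers. It was thus among the top 0.632 to 1.67% of each list, with no treatment on one side. In the libraries over 1100 bp it ranked 505 of 22077 with TCPOBOP, where it was 87.2 kb wide, and 497 of 17577 with vehicle, where it was 60.8 kb wide. The left end of both was at 34514001.

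The rest of the Sox2 window was marked unevenly. In the lists of 600 to 1100 bp no island reached the leftmost 118.4 kb of the window, and 50.7% of the window lay under no island of these 6 lists. The vehicle library over 1100 bp did have an island in that leftmost part, from 34456801 to 34475600. TCPOBOP replicate 1 and vehicle replicate 1 each had a second island just right of the central one, 20 and 18 kb wide. By score these ranked 5001 of 13759 and 8785 of 10057. The other 4 livers had no island at that place, from 34577201 to 34601200. A stretch of 4.0 kb, chr3:34648401-34652400, 98.4 kb right of the centre at its nearest, was covered in 3 of 3 vehicle and 0 of 3 TCPOBOP livers. Over the autosomes, 0.930% of the 400 bp grid windows covered in any liver had that pattern, and at Sox2 the stretch made up 2.70% of such windows (10 of 370, which are adjacent and so not independent). By score, the island over it ranked 3837 of 10057 in vehicle replicate 1. The ranks were 9779 of 14748 in vehicle replicate 2 and 7201 of 12430 in vehicle replicate 3. Those of vehicle replicates 2 and 3, scored 70.2 and 61.1, fell below the shared score minimum of 84.6. At equal covered length, vehicle replicates 1 and 2 kept only the central island in the window (18.5 and 14.9% covered). In both settings the stretch thus lost its pattern. The library over 1100 bp of TCPOBOP replicate 1, made from the same ChIP sample as a liver without an island there, did have an island across it, from 34641601 to 34660400. The opposite pattern, with a background of 0.263%, occurred in 0 grid windows at Sox2, and neither pattern occurred at Sox9 or Sox17.

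At Sox17, the endoderm and endothelial gene, the island had a high score per kb for its list and was sharply bounded on the left. Its right end varied between livers. Its left end lay between 4477201 and 4478401 in all 8 lists, a range of 1.2 kb or 3 steps of the 400 bp grid. Its right end took 6 distinct positions in the 6 livers, grouped here as a short and a long form. It was at 4492800 and 4492400 in TCPOBOP replicates 1 and 3 and at 4492000 in vehicle replicate 1. It lay further right, at 4509200, in TCPOBOP replicate 2, and at 4502400 and 4503600 in vehicle replicates 2 and 3. In TCPOBOP replicate 1 a separate island of 6.4 kb, ranked 13699 of 13759, covered 4496801 to 4503200. Thus 4 of 6 livers were covered over the 5.6 kb from 4496801 to 4502400, 2 of them with TCPOBOP and 2 with vehicle. The libraries over 1100 bp ended at 4502400 with TCPOBOP and 4501200 with vehicle. The ChIP samples of TCPOBOP replicate 1 and vehicle replicate 1 thus both had the short form in one fragment class and the long form over 1100 bp. In TCPOBOP replicate 1 the separate island of 6.4 kb already lay over that place.

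By score the Sox17 island ranked 740 of 13759, 854 of 10197 and 1058 of 6295 in the TCPOBOP livers, against 1490 of 10057, 794 of 14748 and 602 of 12430 in the vehicle livers. An island's score tends to grow with its width, so score per kb is given as well. It is the authors' score spread over the width and not a count of reads. By score per kb it ranked 85, 726 and 115 in TCPOBOP replicates 1, 2 and 3, against 56, 604 and 1044 in vehicle replicates 1, 2 and 3. The 3 livers with the short form, 14.4 to 15.2 kb wide, were within the top 0.557 to 1.83% of their lists, and the 3 with the long form between the top 4.10 and 8.40%. The libraries over 1100 bp, which had the long form, were at the top 1.56% with TCPOBOP and 2.26% with vehicle. Score per kb divides by width, so it is not independent of the form.

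At Sox9, the bile duct gene, the island over the shared stretch was of middling rank and its edges moved between livers. Its width was 25.6, 22.4 and 26.8 kb in TCPOBOP replicates 1, 2 and 3, against 37.6, 18.0 and 8.4 kb in vehicle replicates 1, 2 and 3. The vehicle livers thus held both the widest and the narrowest. Its left end ranged over 20.4 kb and its right end over 10.0 kb in the 6 livers. By score it ranked 2058 of 13759, 3364 of 10197 and 3322 of 6295 in the TCPOBOP livers, against 2118 of 10057, 4585 of 14748 and 8019 of 12430 in the vehicle livers, the top 14.96 to 64.5%. Score per kb was 7.28, 7.03 and 4.09 in TCPOBOP replicates 1, 2 and 3, against 8.75, 7.71 and 6.74 in vehicle replicates 1, 2 and 3. The median island of the same lists had 5.88, 5.63 and 5.01 with TCPOBOP and 6.62, 6.65 and 5.76 with vehicle. TCPOBOP replicate 3 was below its list's median and the other 5 livers were above theirs.

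A second stretch, under low-ranked islands in the livers, lay on the right side of the Sox9 window. Between 112691201 and 112715200 an island was found in TCPOBOP replicates 1 and 2 and in all 3 vehicle livers, and 1.6 kb (chr11:112701201-112702800) was common to these 5. By score these islands were at the top 74.9 and 76.1% in TCPOBOP replicates 1 and 2. In vehicle replicates 1, 2 and 3 they were at the top 91.5, 74.2 and 88.9%. Those of TCPOBOP replicate 1 and vehicle replicates 2 and 3 scored 56.0, 63.5 and 44.7, below the shared score minimum of 84.6. TCPOBOP replicate 3 had none there but one from 112658801 to 112682400, ranked 4503 of 6295. Vehicle replicate 1 also had an island over that place, from 112657601 to 112688000, ranked 7124 of 10057. Just right of the centre, 4.8 kb from 112652801 to 112657600 lay under no island of the 6 lists of 600 to 1100 bp. In the vehicle library over 1100 bp, from the ChIP sample of vehicle replicate 1, the island over the shared stretch ran on across it to 112665600.

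Set against each other within a list, the Sox2 island stood above the Sox9 island in all 8 lists, by score and by score per kb. Its score per kb was 2.21 to 3.66 times that of the Sox9 island in the 6 livers. The Sox17 island also stood above the Sox9 island in all 8 lists by both measures, at 1.61 to 3.33 times its score per kb in the livers. Between Sox2 and Sox17 the measures differed. By score Sox2 was ahead in 8 of 8 lists, and by score per kb in 5 of 8, where the ratio of Sox2 to Sox17 ran from 0.817 to 1.69 in the livers. These ranks are descriptions of the authors' scores and were not tested.

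**Figure D2:**
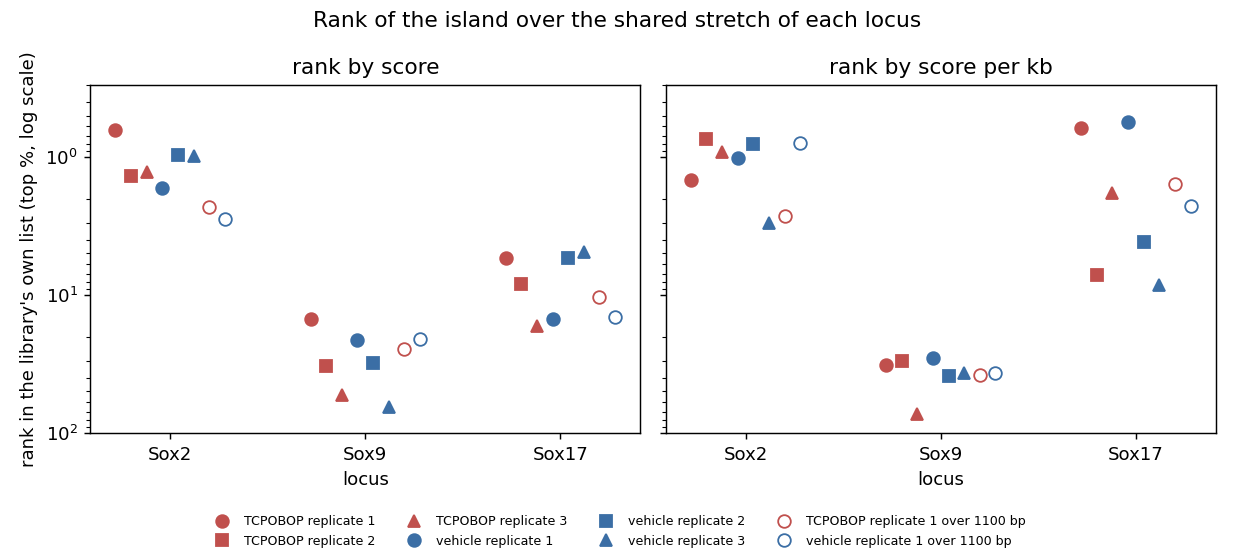
Rank of the island over the stretch shared by all 6 livers, as the top percent of the library's own list (log scale, strongest at the top), by score on the left and by score per kb on the right. Filled markers are the 6 livers and open markers the libraries over 1100 bp, red for TCPOBOP and blue for vehicle. Sox2 lies above Sox9 in every list in both panels, and Sox17 approaches Sox2 by score per kb.

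The first comparison asked whether cover of the 3 windows differed 3 h after TCPOBOP. The Sox2 window was 34.8, 22.4 and 14.1% covered in TCPOBOP replicates 1, 2 and 3, against 34.8, 21.1 and 17.5% in vehicle replicates 1, 2 and 3. The highest value was the same in both treatments and the livers overlapped throughout. Means were 23.8 ± 10.4% with TCPOBOP and 24.4 ± 9.15% with vehicle (SD, n = 3 each). They differed by -0.667 percentage points (two-sided exact permutation p = 1.0).

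The Sox17 window was 26.5, 39.5 and 19.0% covered in the TCPOBOP livers, against 18.0, 31.5 and 31.5% in the vehicle livers. These followed the short and long forms of the island, which both treatments held. Means were 28.3 ± 10.4% with TCPOBOP and 27 ± 7.79% with vehicle (SD, n = 3 each). They differed by 1.33 percentage points (exact permutation p = 0.9).

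The Sox9 window was 30.3, 25.1 and 36.0% covered in the TCPOBOP livers, against 84.9, 28.9 and 13.1% in the vehicle livers. Vehicle replicate 1, which had the longest list, stood far above the other 5 livers, with 4 islands that filled most of the window. With all lists at equal covered length its value was 26.9%. Means were 30.5 ± 5.43% with TCPOBOP and 42.3 ± 37.7% with vehicle (SD, n = 3 each). They differed by -11.8 percentage points (exact permutation p = 0.9). The difference turned to 9.48 without vehicle replicate 1 and to 8.19 at equal covered length, so no direction is read from it.

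None of the 3 windows separated the treatments, and each difference was below the larger SD of its 2 treatments. Among autosomal tiles of the same lengths with any cover, TCPOBOP livers were all below vehicle livers in 4.13% of 300 kb, 4.03% of 140 kb and 4.00% of 80 kb tiles, and all above in 1.25, 1.38 and 1.34%. The smallest p that 3 livers against 3 can give is 0.1, so none of these tests could pass 0.05. Adjusted over the 6 exact tests of the windows as given, 3 between treatments and 3 between loci, every p was 1.0. Exact tests under other settings are outside this adjustment, and their p-values are unadjusted.

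**Figure D3:**
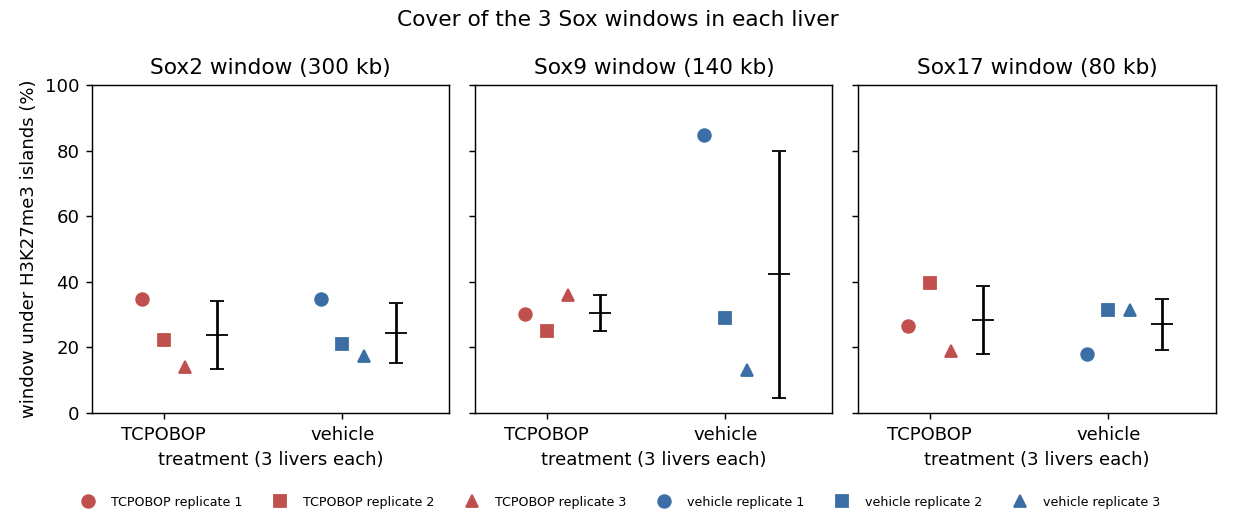
Percent of each window under islands in the libraries of 600 to 1100 bp, 1 point per liver, TCPOBOP in red and vehicle in blue. Bars give the mean and SD of 3 livers. The treatments overlap in all 3 windows, and vehicle replicate 1 stands at 84.9% at Sox9.

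Across all regions formed by merging the islands of the 6 livers, 14560 in number, 9 touched the windows, and 6 of these were at least 50% covered in at least 2 livers and so were tested. With limma on the covered fraction of 8659 regions, 0 were called at an adjusted p of 0.05 (0.00% of those tested), and 225 had an unadjusted p under 0.05, 2.24% of the regions as lower and 0.358% as higher with TCPOBOP. None of the 6 was among these 225. The central Sox2 region, 58.0 kb, was 93.8, 80 and 73.1% covered in the TCPOBOP livers, against 95.9, 77.2 and 74.5% in the vehicle livers. That was a difference of -0.23 percentage points (SE 10.0, limma adjusted p = 1). The Sox17 region, 32.0 kb, differed by 3.33 points (SE 17.2, limma adjusted p = 1). The central Sox9 region, 38.8 kb, was 66.0, 57.7 and 69.1% covered in the TCPOBOP livers, against 96.9, 46.4 and 21.6% in the vehicle livers, a difference of 9.28 points (SE 23.2, limma adjusted p = 1). The SEs lean on limma's variance trend over all regions and do not allow a change of the size seen between single livers to be told from none.

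The second comparison set neural Sox2 against Sox9 and Sox17 within each liver. Over the windows as given, Sox2 averaged 24.1 ± 8.77%, Sox9 36.4 ± 24.9% and Sox17 27.7 ± 8.24% covered (SD, n = 6). Against Sox9 the difference of Sox2 was -12.3 points (lower in 4 of 6 livers, exact paired permutation p = 0.25). Against Sox17 the difference was -3.56 points (lower in 4 of 6, exact paired permutation p = 0.531), and Sox9 was 8.71 points above Sox17 (higher in 3 of 6, exact paired permutation p = 0.688). No neighbours in that order differed beyond their spread.

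The windows differ in length, and that order did not hold over equal lengths. Over the central 80 kb of each, Sox2 was 64.3 ± 14.2%, Sox9 40.3 ± 28.2% and Sox17 27.7 ± 8.24% covered (SD, n = 6). Sox2 was then 36.6 points above Sox17, higher in 6 of 6 livers (exact paired permutation p = 0.03125, unadjusted, the smallest that 6 livers allow). It was 24.0 points above Sox9, higher in 4 of 6 livers (exact paired permutation p = 0.125). The exceptions were vehicle replicate 1, where both windows were 85.5% covered, and TCPOBOP replicate 3, where Sox2 was at 53.0% and Sox9 at 63.0%. Of all 80 kb tiles of the autosomes, 2.74% were covered as much as Sox2 on average, 8.86% as much as Sox9 and 14.4% as much as Sox17.

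Other genes of the family were examined in 80 kb windows at approximate mm9 positions taken from general knowledge. They were Sox1, Sox14 and Sox21 (subgroup B, nervous system), Sox4 and Sox11 (subgroup C, neural and mesenchymal progenitors), Sox8 and Sox10 (subgroup E, neural crest and glia among others), and Sox7 and Sox18 (subgroup F, endothelium). All 9 windows held an island in all 6 livers, as did 15.4% of the autosomal tiles of that size. Mean cover ran from 96.2% at Sox1 to 27.9% at Sox10, with a median of 53.3%, against a mean over all tiles of 10.3%. Among the 12 Sox windows, Sox2 was the third, Sox9 the eighth and Sox17 the last by mean cover.

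Mean cover differed between the genes of each subgroup. In subgroup C, with 2 genes, Sox4 averaged 53.3 ± 12.7% and Sox11 31.1 ± 16.0% covered (SD, n = 6 livers). In subgroup F, Sox7 averaged 57.1 ± 15.5%, Sox18 36.1 ± 12.5% and Sox17 27.7 ± 8.24% covered (SD, n = 6 livers). In subgroup E, Sox8 averaged 58.9 ± 14.9%, Sox9 40.3 ± 28.2% and Sox10 27.9 ± 7.16% (SD, n = 6). In subgroup B, Sox1 averaged 96.2 ± 9.39%, Sox21 80.7 ± 19.4%, Sox2 64.3 ± 14.2% and Sox14 48.6 ± 8.65% (SD, n = 6). Of the 9 other windows, 0 separated TCPOBOP from vehicle livers in either direction. By mean absolute difference over the 6 livers, the window most like Sox2 was Sox7, at 9.0 points, the one most like Sox17 was Sox10, at 9.25, and the one most like Sox9 was Sox10, at 18.7.

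**Figure D4:**
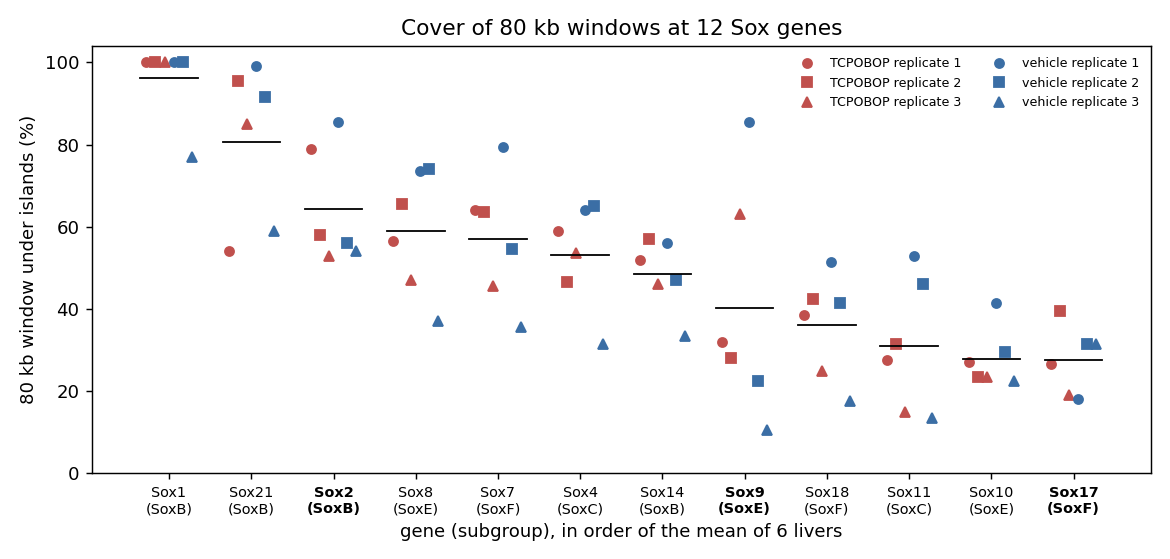
Percent of an 80 kb window under islands at 12 Sox genes, 1 point per liver of 600 to 1100 bp fragments, TCPOBOP in red and vehicle in blue, with the mean of 6 livers as a line. Sox2, Sox9 and Sox17 are in bold type. By mean, Sox1 is highest at 96.2% and Sox17 lowest at 27.7%, close to Sox10 at 27.9%, and every window was marked in every liver.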

How the data were processed

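H3K27me3 ChIP-seq was analysed from 8 island lists, 1 per library, with 3 TCPOBOP and 3 vehicle livers as the groups. Per the submitters' processing notes, Bowtie2 2.3.2, SICER 1.1 and build mm9 were used, without their roles. Each island carries a deposited score, the authors' own value relative to a background modelled per library. Windows of 400 bp and gaps of 2400 bp are named in the file names. Islands were listed per library, and whether an input was used is not stated there.

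Cover was the percent of a window under islands, in 1-based mm9 coordinates. Two-sided exact permutation tests compared treatments (20 labellings), and exact sign flips over 6 livers compared loci (64). Merged regions were tested with limma 3.58.1 in R 4.3.3 (trend, Benjamini-Hochberg at 0.05), which was tested on simulated data. Other steps used Python 3.11.15, numpy 2.4.6 and pandas 2.3.3. Tiles ran from each autosome's start to its last island. Alternatives are a score minimum of 84.6, an equal covered length of 174 Mb, other windows, merged libraries and livers left out. Every island and merged region touching a window could be named. Members and gene lists were chosen with earlier results of these data known.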

Additional observations from a re-analysis of the deposited data

How the results depend on the processing

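Differences between treatments are in percentage points, TCPOBOP minus vehicle. At Sox2 the difference of -0.667 became 3.38 at equal covered length and 1.29 under the score minimum, was -5.33 with the fragment classes of a ChIP sample merged, and ranged from -6.18 to 4.51 with 1 liver left out. At Sox9, -11.8 became 8.19 at equal covered length and 1.5 over the central 80 kb, and ranged from -26.4 to 9.48, positive without vehicle replicate 1. At Sox17, 1.33 became -1.33 under the score minimum and likewise at equal covered length, -4.67 in a window of double length and -0.667 with the fragment classes of a ChIP sample merged, and ranged from -4.25 to 6.0. Between loci, Sox2 minus Sox9 became 24.0 over the central 80 kb, was -16.5 in the windows of double length (exact paired permutation p = 0.03125), -0.667 at equal covered length and -7.50 under the score minimum, against -12.3 as reported, and ranged from -15.6 to -4.71. Sox2 minus Sox17, -3.56 as reported, became 36.6 over the central 80 kb, 0.756 with libraries merged and -7.67 at equal covered length, and ranged from -7.63 to -0.847. Sox9 minus Sox17 became -7.0 at equal covered length and ranged from -2.91 to 14.1, negative without vehicle replicate 1. The cause of these changes was not tested, and the exact p-values of the alternatives were not adjusted for the number of settings. limma called 1 region on the arcsine scale (adjusted p = 0.0430) and 0 under the other alternatives, including each liver left out (0 to 0). Of regions with an unadjusted p under 0.05, 31 were higher and 194 lower with TCPOBOP, and 238 and 145 after centring each library. Replicate numbers are not said to mark shared animals, and the correlations of the deviations between livers of one number were 0.139, 0.0706 and 0.365 over 80 kb tiles. TCPOBOP replicate 2 correlated better with vehicle replicate 1, at 0.218. With the replicate block the differences stayed at -0.667, -11.8 and 1.33 (exact paired permutation p = 1.0, 0.75 and 1.0), and limma called 0 regions. The lists give no reads, so the depth needed to see a change at these loci is unknown.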

Other observations

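At the right edge of the Sox2 window, both libraries over 1100 bp held an island that started at 34691201. It was 23.6 kb wide and ranked 3209 of 22077 by score with TCPOBOP, and 52.8 kb wide and ranked 2332 of 17577 with vehicle. Among the 6 livers of 600 to 1100 bp fragments, islands reached into that place in TCPOBOP replicates 1 and 2 and in vehicle replicate 2, at ranks 13661 of 13759, 7780 of 10197 and 13084 of 14748. The other 3 livers had none there. At the right edge of the Sox9 window, the library over 1100 bp held an island of 48.8 kb with TCPOBOP, ranked 3913 of 22077. With vehicle it held one of 32.4 kb, ranked 5228 of 17577. In the TCPOBOP list this rank was ahead of that of the island over the stretch shared by all livers, which was 5483. In the vehicle list the order was the opposite, with the island over that stretch at 3641.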
